A study of Mus musculus with 2 samples.

Results

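The mouse Slc25 genes described here were the protein-coding genes of the GENCODE vM21 annotation whose symbol starts with Slc25a, without Slc25a37 and Slc25a38. They numbered 45 of 21884 protein-coding genes with a unique symbol. DNase-seq read their chromatin in embryonic mouse liver at an age of 13.5 days. The assay sequences the cuts that the enzyme DNase I makes where no nucleosome covers the DNA. Both libraries carry the strain label C57BL/6N,129 and come from wild-type animals with the A85 YAC, a yeast artificial chromosome present in multiple copies. Its content was not analysed here. The libraries are 2 biological replicates of 1 group, with 1 donor label between them and the sex not collected, so no condition is compared. Slc25 genes were set beside all protein-coding genes instead, and the difference between libraries beside that of all regions. Nothing states that the samples came from separate animals, so the spread between them may be technical.

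Slc25 proteins sit in the inner mitochondrial membrane, apart from a few that work in peroxisomes or the outer membrane. Most move a small molecule, such as ADP, phosphate, citrate, an amino acid, a vitamin-derived cofactor or iron, between the cytosol and the matrix. The embryonic liver at this age makes most of the red cells of the embryo, and red cell precursors need mitochondrial glycine, iron and glutathione supply to build heme. Hepatoblasts, the precursors of hepatocytes, lie among them and later rely on carriers of the urea cycle and of fat oxidation. A DNase peak at a gene's start is a common mark of a promoter open to the transcription machinery, and a footprint is a short stretch within it that is cut less than its surroundings, often where a protein is bound.

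For each gene the peaks within 1 kb of any transcript start were taken, and peaks of both replicates that overlapped were merged into 1 promoter region. A gene with several regions is given by its highest, the one with the highest mean log2 value over both replicates. A region further than 1 kb from every protein-coding start was called distal and assigned to each gene with a start within 50 kb. The peak value is the authors' deposited signal, which came in whole multiples of a fixed step in each library, so that it could be turned back into a count with a 95% Poisson interval. Scales were not stated, so values were compared between genes within a library. In whole liver, fewer cells with an open site and less opening per cell cannot be told apart.

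The longer peak lists held 76130 peaks in replicate 1 and 73852 in replicate 2, and 45831 of 99252 merged regions had a peak in both. A median peak rested on 69 counts in replicate 1 and 126 in replicate 2. Of the marker genes listed for the cell types of this tissue, 5 of 5 erythroid genes had a promoter region in both replicates, against 2 of 5 hepatoblast genes, 0 of 4 macrophage genes and 1 of 4 endothelial genes. The share over all protein-coding genes was 58.4%. The hepatoblast genes Alb (replicate 1) and Hnf4a and Ttr (replicate 2) had a promoter peak in a single replicate. So did the macrophage gene Lyz2 and the endothelial gene Cdh5, both in replicate 1. Of markers of tissues that were not sampled, 2 of 4 neural genes and 1 of 4 muscle genes had such a region, so a promoter region alone did not mark a cell type.

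The sequences that follow are those of the Slc25 promoter regions on which the results below turn, read from the mm10 genome in the direction of transcription. Capitals mark bases covered by a footprint in both replicates, and regions were trimmed to end 50 bases past the start they surround. The first is that of the Slc25 gene with the highest promoter value, the mitochondrial folate carrier gene Slc25a32, on chr15:39112667-39112840 (minus strand).
Slc25a32: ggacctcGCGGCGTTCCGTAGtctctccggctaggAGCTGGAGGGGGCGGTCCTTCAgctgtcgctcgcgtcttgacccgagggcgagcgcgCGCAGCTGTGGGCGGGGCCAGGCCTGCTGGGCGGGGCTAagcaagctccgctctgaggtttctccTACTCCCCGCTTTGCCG

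The next sequences show promoters whose highest region lay well upstream of the annotated start. They belong to Slc25a25, a calcium-regulated carrier of ATP-Mg against phosphate (chr2:32451401-32451640, at the start), to Slc25a39, the glutathione importer (chr11:102408471-102408770, the central 300 bases of the upstream region, and chr11:102407495-102407640 at the start), and to Slc25a23, another ATP-Mg carrier (chr17:57060461-57060700). All are on the minus strand.
Slc25a25 start: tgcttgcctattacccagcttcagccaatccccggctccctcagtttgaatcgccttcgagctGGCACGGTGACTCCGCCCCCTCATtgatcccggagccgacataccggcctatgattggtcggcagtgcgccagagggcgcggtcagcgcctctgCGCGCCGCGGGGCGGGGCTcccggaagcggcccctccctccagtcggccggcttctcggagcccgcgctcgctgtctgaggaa
Slc25a39 upstream: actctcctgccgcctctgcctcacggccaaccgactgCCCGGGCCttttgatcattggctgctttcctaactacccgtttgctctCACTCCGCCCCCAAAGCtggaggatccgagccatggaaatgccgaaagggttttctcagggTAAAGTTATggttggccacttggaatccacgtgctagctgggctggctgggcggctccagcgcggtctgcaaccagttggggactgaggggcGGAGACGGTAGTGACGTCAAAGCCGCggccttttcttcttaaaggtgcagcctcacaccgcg
Slc25a39 start: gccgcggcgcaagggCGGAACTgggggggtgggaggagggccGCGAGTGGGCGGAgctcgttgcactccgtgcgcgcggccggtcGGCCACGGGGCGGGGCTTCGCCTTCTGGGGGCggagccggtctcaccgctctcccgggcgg
Slc25a23 upstream: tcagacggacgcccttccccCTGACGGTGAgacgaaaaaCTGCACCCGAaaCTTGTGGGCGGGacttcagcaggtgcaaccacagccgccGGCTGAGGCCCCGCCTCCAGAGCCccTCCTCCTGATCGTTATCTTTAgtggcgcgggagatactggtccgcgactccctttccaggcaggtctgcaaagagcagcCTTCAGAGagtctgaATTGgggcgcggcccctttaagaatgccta
The upstream region of Slc25a39 held the CRE consensus TGACGTCA inside a footprint, and that of Slc25a23 held 1 match to the GATA consensus AGATAA inside a footprint, there as its reverse complement TTATCT.

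The next sequences give the region shared by 2 Slc25 genes that point away from each other, Slc25a29 and Slc25a47 (chr12:108835834-108836080, minus strand), the region with the lowest ratio of replicate 2 over replicate 1 among the highest regions of the genes, at the branched-chain amino acid carrier gene Slc25a44 (chr3:88425101-88425340, minus strand), and the lowest of those highest regions, at Slc25a43 (chrX:36743537-36743760, plus strand). The last of these has no capitals because no base was footprinted in both replicates.
Slc25a29 and Slc25a47: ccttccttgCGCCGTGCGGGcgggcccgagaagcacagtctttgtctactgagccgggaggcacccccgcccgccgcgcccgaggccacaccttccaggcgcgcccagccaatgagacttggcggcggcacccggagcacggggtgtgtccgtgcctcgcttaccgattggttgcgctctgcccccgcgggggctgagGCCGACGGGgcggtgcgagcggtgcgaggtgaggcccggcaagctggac
Slc25a44: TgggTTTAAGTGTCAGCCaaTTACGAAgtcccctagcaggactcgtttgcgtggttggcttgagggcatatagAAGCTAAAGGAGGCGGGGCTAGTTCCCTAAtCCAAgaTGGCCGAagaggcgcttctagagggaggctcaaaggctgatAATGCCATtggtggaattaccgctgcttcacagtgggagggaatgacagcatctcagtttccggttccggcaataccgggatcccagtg
Slc25a43: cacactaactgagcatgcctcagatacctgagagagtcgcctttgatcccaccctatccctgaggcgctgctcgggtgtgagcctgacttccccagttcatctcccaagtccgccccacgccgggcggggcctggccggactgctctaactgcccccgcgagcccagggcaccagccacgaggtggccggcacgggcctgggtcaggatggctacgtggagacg

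For contrast, RefSeq's promoter windows on GRCm38.p6, from 250 bases before to 50 after the start, are given for Slc25a31, an ADP/ATP carrier gene known from the testis (chr3:40708621-40708920, plus strand), and for Slc25a18, a glutamate carrier gene known from the brain (chr6:120773518-120773817, plus strand). Neither had a promoter peak in either replicate. The table held 35 of the 45 Slc25 genes.
Slc25a31: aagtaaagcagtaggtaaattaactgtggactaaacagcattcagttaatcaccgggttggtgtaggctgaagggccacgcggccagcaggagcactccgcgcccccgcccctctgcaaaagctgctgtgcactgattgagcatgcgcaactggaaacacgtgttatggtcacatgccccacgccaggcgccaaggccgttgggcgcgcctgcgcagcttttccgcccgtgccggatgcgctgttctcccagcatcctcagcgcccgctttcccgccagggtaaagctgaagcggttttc
Slc25a18: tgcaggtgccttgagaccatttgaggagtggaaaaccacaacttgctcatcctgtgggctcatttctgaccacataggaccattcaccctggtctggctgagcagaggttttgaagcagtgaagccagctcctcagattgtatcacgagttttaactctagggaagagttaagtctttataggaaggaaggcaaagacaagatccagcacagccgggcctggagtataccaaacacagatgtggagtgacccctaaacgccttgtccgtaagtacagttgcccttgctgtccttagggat
The Slc25a31 window was rich in CpG, with 22 CpG dinucleotides. On either strand it held 2 matches to GGGCGG, 1 to the NRF1 consensus and 1 E-box CACGTG. The Slc25a18 window held 4 CpG dinucleotides and 1 match to TATAAA, there as its reverse complement TTTATA.

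Most Slc25 promoters were open in both replicates. A promoter region of both replicates was found at 38 of the 45 Slc25 genes (84.4%), against 58.4% of all protein-coding genes. In replicate 1, 38 Slc25 genes had a promoter peak, where 60.7% of all genes had one, and in replicate 2 the number was 40, where 65.3% of all genes had one. The carriers of cofactors, glutathione and iron (10 of 10), of carboxylates and acylcarnitine (5 of 5) and the relatives of uncoupling proteins (3 of 3) all had such a region. It was found at 8 of 11 carriers of nucleotides and phosphate, at 6 of 8 amino acid carriers and at 6 of 8 others.

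The promoter values of the open Slc25 genes lay around the median of all genes. Their median was 7.09 in replicate 1 and 5.73 in replicate 2, against 5.95 and 5.04 over all protein-coding genes with such a region. The median percentile of an Slc25 gene among them was 56.5 in replicate 1 and 55.2 in replicate 2. In both replicates 21 of the 38 lay above the median of all genes. Slc25 values lay between 0.519 and 23.5 in replicate 1 and between 0.543 and 14.2 in replicate 2, against 0.165 to 34.5 and 0.151 to 59.1 over all genes.

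**Figure D1:**
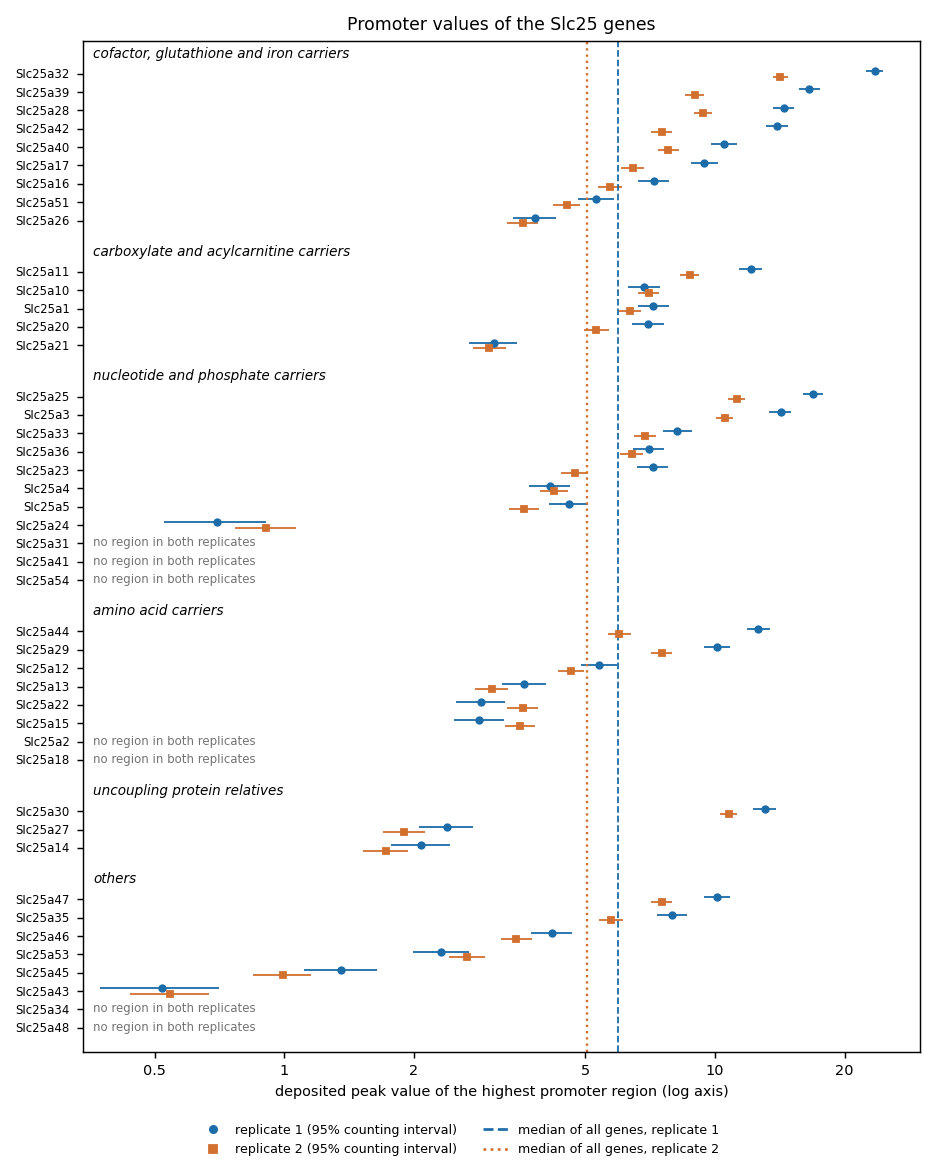
Deposited peak value (log axis) of the highest promoter region of 44 Slc25 genes, by class, with 95% counting intervals for replicate 1 (circles) and replicate 2 (squares) and the medians of all protein-coding genes as vertical lines. Carriers of cofactors, glutathione and iron reach from 3.82 to 23.5 in replicate 1, and the 7 genes without a region in both replicates fall in 3 of the 6 classes.

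Among the classes, the carriers of cofactors, glutathione and iron had the highest median, 12.2 in replicate 1 and 7.66 in replicate 2, against 5.95 and 5.04 over all genes. Slc25a32 stood at the top, with 23.5 (95% interval 22.4 to 24.6, from 1856 counts) in replicate 1 and 14.2 (13.6 to 14.8, from 2349 counts) in replicate 2. It lay at percentile 99.4 in replicate 1 and 96.8 in replicate 2, and its start points away from that of Dcaf13. In both replicates 7.54% of all genes with a region lay at or above percentile 90.

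Past percentile 90 in replicate 1 alone were Slc25a25, with 16.9 in replicate 1 and 11.2 in replicate 2 (percentiles 94.5 and 89.4), and Slc25a39, with 16.6 and 8.98 (percentiles 93.9 and 78.9). The rest of the cofactor class included Slc25a28, the iron carrier mitoferrin-2, with 14.4 in replicate 1 and 9.39 in replicate 2. Slc25a42, which brings coenzyme A into the matrix, had 13.9 and 7.52. Slc25a40, the near relative of Slc25a39, had 10.5 and 7.80, and Slc25a17, a peroxisomal carrier of coenzyme A and related cofactors, 9.44 and 6.43. Lower in the class were Slc25a16 with 7.21 and 5.71, the NAD carrier Slc25a51 with 5.30 and 4.53, and the S-adenosylmethionine carrier Slc25a26 with 3.82 and 3.57. The last of these lay below the median of all genes in both replicates.

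The carboxylate carriers had a median of 6.99 in replicate 1 and 6.35 in replicate 2. Slc25a11, the oxoglutarate carrier of the malate-aspartate shuttle, had 12.1 and 8.73. The citrate carrier Slc25a1 (7.19 and 6.35), the dicarboxylate carrier Slc25a10 (6.86 and 7.01) and the carnitine-acylcarnitine carrier Slc25a20 (6.99 and 5.30) had overlapping counting intervals in replicate 1. In replicate 2 the interval of Slc25a20 (4.96 to 5.66) lay below those of Slc25a1 (5.97 to 6.75) and Slc25a10 (6.62 to 7.43). Slc25a21, the oxodicarboxylate carrier of lysine breakdown, was lowest with 3.06 and 2.99. That region, its highest by the mean of both replicates, spanned 800 bp and was centred 471.5 bp past the nearest start. Another, centred 398.5 bp upstream, had 3.19 in replicate 1 and 0.918 in replicate 2.

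Near relatives within the family had unlike promoters in several cases. Among the ADP/ATP carriers, Slc25a4 had 4.14 in replicate 1 and 4.23 in replicate 2, and Slc25a5 had 4.57 and 3.61, below the median of all genes in both replicates, and Slc25a31 had no peak. Among the ATP-Mg carriers, Slc25a25 had 16.9 and 11.2, Slc25a23 7.16 and 4.73 and Slc25a24 0.696 and 0.905, and Slc25a41 had no peak. Slc25a54, which lies beside Slc25a24 on chromosome 3, had none either. The pyrimidine nucleotide carriers Slc25a33 (8.18 and 6.87) and Slc25a36 (7.02 and 6.40) had overlapping counting intervals in both replicates. Such overlap does not show that the values are equal, and Slc25a33 was the higher in both replicates. Slc25a3, the carrier that supplies phosphate for ATP synthesis, had 14.2 and 10.5.

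The aspartate-glutamate carriers Slc25a12 (5.38 and 4.64) and Slc25a13 (3.61 and 3.03), of which Slc25a13 is the isoform known from liver, both lay below the median of all genes. Of the glutamate carriers, Slc25a22 had 2.86 in replicate 1 and 3.57 in replicate 2, and Slc25a18 had no peak. Of the ornithine carriers, Slc25a15 of the urea cycle had 2.84 and 3.53, and Slc25a2 had no peak. Slc25a44, with 12.6 and 6.00, and the basic amino acid carrier Slc25a29, with 10.1 and 7.53, were the highest of the amino acid carriers. The uncoupling protein relatives were split, with Slc25a30 at 13.0 and 10.8, Slc25a27 at 2.38 and 1.90 and Slc25a14 at 2.08 and 1.72.

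Slc25a29 and Slc25a47 shared 1 region between starts that point away from each other, so its value of 10.1 in replicate 1 and 7.53 in replicate 2 counts for both. Slc25a47 is known as a liver carrier. Counting those, 5 Slc25 genes had a divergent protein-coding partner within 1 kb, against 6.74% of all genes, the others being Slc25a27 with Cyp39a1, Slc25a32 with Dcaf13 and Slc25a40 with Dbf4. A value at such a region cannot be assigned to either gene. The same holds for regions within 1 kb of a start of another protein-coding gene that was not counted as divergent. Among these were the highest region of Slc25a11 (with Rnf167), that of Slc25a46 (with B930094E09Rik) and the start region of Slc25a25 (with Naif1).

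At the low end, Slc25a43 had 0.519 (0.372 to 0.704, from 41 counts) in replicate 1 and 0.543 (0.437 to 0.668, from 90 counts) in replicate 2. Slc25a24 had 0.696 (55 counts) and 0.905 (150 counts). They were the only members at or below percentile 10 in both replicates, 2 of 38, where 7.56% of all genes with a region were. Slc25a45 was next with 1.35 and 0.990, and Slc25a53 had 2.32 and 2.66. Slc25a35 had 7.95 and 5.74 and Slc25a46, a protein of the outer membrane, 4.18 and 3.46.

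For 7 Slc25 genes no promoter region was found in both replicates. Slc25a2, Slc25a18, Slc25a31, Slc25a41 and Slc25a54 had no promoter peak in either replicate, and no base within 1 kb of their starts had a listed FDR (false discovery rate) in either. The deposited FDR lists hold values under 0.05, so weaker signal there cannot be read. Slc25a34 and Slc25a48 had a promoter peak in replicate 2 alone, with values of 0.682 (0.562 to 0.820, from 113 counts) and 0.483 (0.383 to 0.601, from 80 counts). Their lowest listed FDR in replicate 2 was 0.0087 and 0.00826, and none was listed in replicate 1. Among all 9110 genes without a region of both replicates, an FDR was listed near a start in 9.03% in replicate 1 and in 18.8% in replicate 2.

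The highest promoter region of an open Slc25 gene was centred within 100 bp of the nearest start in 28 of 38 cases, where 68.4% of all genes with a region were. In 4 of 38 it was centred over 500 bp upstream, where 3.89% of all genes were. These were Slc25a51 (754.5 bp upstream), Slc25a23 (717.5 bp), Slc25a25 (715.5 bp) and Slc25a39 (674.5 bp). They were singled out after their values had been seen.

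At Slc25a25 the region upstream had 16.9 in replicate 1 and 11.2 in replicate 2, and the region at the start, 75.5 bp upstream, had 13.7 and 8.69. At Slc25a39 the upstream region had 16.6 and 8.98, and the region 3.5 bp past an inner start had 11.4 and 10.4. The order of the Slc25a39 regions therefore differed between replicates, upstream above start in replicate 1 and below it in replicate 2. At Slc25a51 the upstream region had 5.30 and 4.53 and the start region 5.18 and 4.07, with overlapping counting intervals in both replicates. Slc25a23 had the upstream region alone in both replicates, and its start carried a peak of 1.16 in replicate 2 only.

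Footprints found in both replicates lay within 1 kb of a start at 36 of 45 Slc25 genes, against 52.3% of all protein-coding genes. The median was 4 over Slc25 genes with a promoter region and 4 over all such genes. Slc25a51 had most, with 11, and Slc25a25 and Slc25a28 had 10 each. Slc25a25 has 12 annotated transcript starts and Slc25a51 has 6, and the region of Slc25a28 spans 720 bp. Slc25a24 and Slc25a43 had a promoter region and no footprint of both replicates, although Slc25a24 had 1 footprint in replicate 1 and 8 in replicate 2 and Slc25a43 had 0 and 4. Slc25a13 had 1 of both replicates.

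Slc25 promoters were mostly of the GC-rich kind. In the window from 250 bases before to 50 after the 5′ end, the 38 open Slc25 genes had a median GC content of 61.3% and a CpG ratio (observed over expected from base content) of 0.660, against 59.7% and 0.738 in all open genes. The 7 Slc25 genes without a region had 56.3% and 0.476, against 47.7% and 0.203 in all genes without one. Slc25a31 had the highest values of those 7, with 60.0% GC and a ratio of 0.779. Slc25a34 and Slc25a18 had the lowest ratios of the family, 0.0383 and 0.110.

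Short consensus sequences were searched on both strands of that window. The E-box CACGTG, bound by factors of the MYC, USF and TFE families, was found in 11 of 45 Slc25 genes (24.4%), against 7.73% of all protein-coding genes. Those 11 were Slc25a1, Slc25a2, Slc25a13, Slc25a14, Slc25a26, Slc25a31, Slc25a32, Slc25a33, Slc25a36, Slc25a46 and Slc25a51. Within the open regions themselves it was found in 7 of 38 (18.4%), against 11.1%. None of the 174 footprints of both replicates at Slc25 promoters, extended by 5 bp, held it, where 1.09% of all such footprints did. A match is a description of the letters and no evidence that a protein was bound.

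The SP/KLF element GGGCGG was found in 31 Slc25 windows (68.9%), against 43.0% of all windows, and in 31 of 38 open regions (81.6%), against 72.0%. It was also the most frequent of the searched elements in footprints, with 44 of 174 Slc25 footprints (25.3%), against 22.3% of all. The wider KLF consensus CCNCNCCC, which can overlap GGGCGG on the other strand, was in 31 windows (68.9%), against 54.6%, and in 27 of 38 open regions (71.1%), against 71.6%. The ETS core CCGGAA was in 12 windows (26.7%), against 17.4%, and in 13 of 38 open regions (34.2%), against 31.1%. The CCAAT box was in 21 windows (46.7%), against 39.0%, and in 21 of 38 open regions (55.3%), against 38.2%.

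NRF1, a regulator known for nuclear genes of mitochondrial proteins, has a consensus that was found in 3 Slc25 windows (6.67%), those of Slc25a3, Slc25a31 and Slc25a51, against 5.97% of all windows. In the open regions it was in 1 of 38 (2.63%), at Slc25a3, against 12.9%. The ERR consensus TCAAGGTCA was in 0 windows, against 0.475%. The CRE consensus TGACGTCA was in 2 windows (4.44%), those of Slc25a26 and Slc25a36, against 2.43%, and its core TGACGT, which each full CRE contains, in 5 (11.1%), against 8.63%. The YY1 consensus AANATGGC was in 4 windows (8.89%), against 6.14%, and in 2 of 38 open regions (5.26%), against 10.5%.

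TATAAA was found in 1 Slc25 window (2.22%), that of Slc25a4, against 12.6% of all windows. Among genes with a promoter region it was in 2.63% of Slc25 windows, against 7.31% of all. In open regions it was in 0 of 38, against 3.51%. The RefSeq window of Slc25a18 printed above starts elsewhere than that of GENCODE, which is the one counted here. The GATA consensus AGATAA was in 1 Slc25 window (2.22%), that of Slc25a53, against 10.2%. Among genes with a promoter region GATA was in 2.63% of Slc25 windows, against 6.58% of all. In open promoter regions, which can extend past the window, GATA was in 4 of 38 Slc25 genes (10.5%), against 4.02%. These were Slc25a21, Slc25a23, Slc25a24 and Slc25a51. Their regions spanned 800, 240, 580 and 160 bp, against a median of 260 bp over all genes with a region. The CTCF consensus, added to the search after values had been seen, was in 3 windows (6.67%), against 9.42%.

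**Figure D2:**
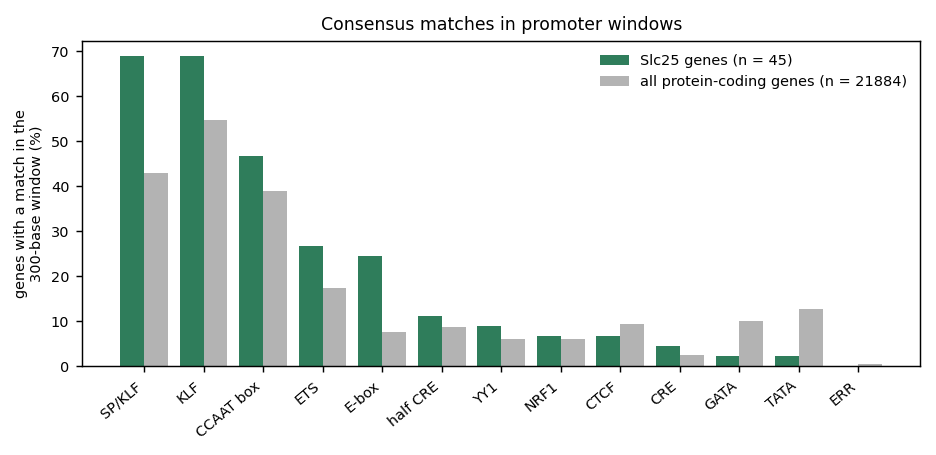
Share of genes (y axis, percent) with a match to each consensus in the window of 300 bases around the 5′ end, for the 45 Slc25 genes (left bar of each pair) and all 21884 protein-coding genes (right bar). The E-box was found in 24.4% of Slc25 genes against 7.73% of all genes, and TATAAA in 2.22% against 12.6%. Among genes with a promoter region, not drawn here, the shares were 23.7% against 10.1% and 2.63% against 7.31%.

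Distal regions of both replicates were counted around each gene. An Slc25 gene had 2.84 ± 2.75 within 50 kb (mean ± SD over genes, n = 45), against 2.32 ± 2.63 over all protein-coding genes (n = 21884). The median was 2 in both. At least 1 was present at 39 of 45 Slc25 genes (86.7%), where 71.0% of all genes had one. Within 100 kb the means were 6.27 for Slc25 genes and 4.25 for all genes, and within 20 kb 1.07 and 1.08, so the order of the means turned with the window. The number of gene 5′ ends within 50 kb had a median of 3 for Slc25 genes and for all genes.

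**Figure D3:**
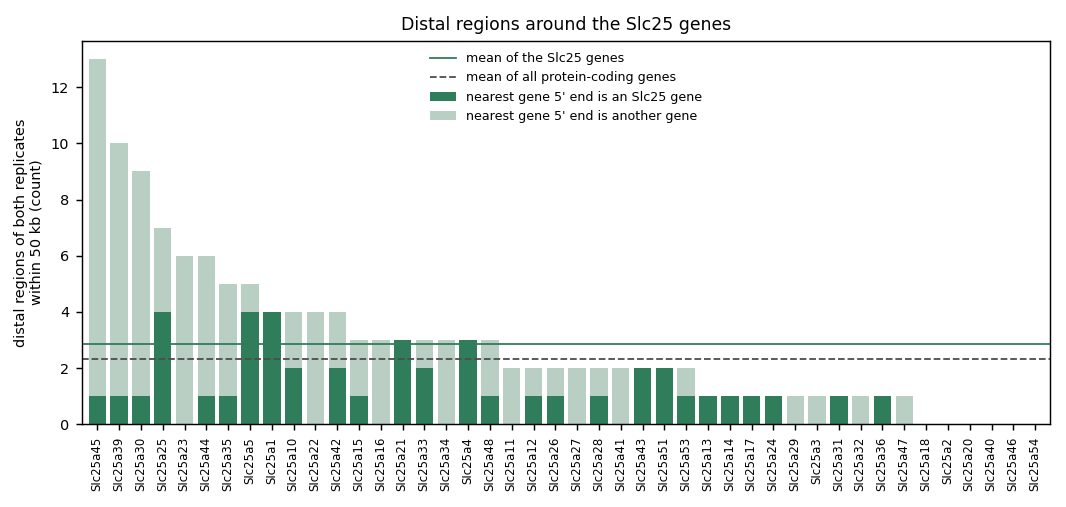
Count of distal regions of both replicates within 50 kb (y axis) for 44 Slc25 genes. Bars are split by whether the nearest gene 5′ end is that of the same Slc25 gene (dark) or of any other gene (light). The mean of all 45 Slc25 genes is 2.84 (solid line) and that of all protein-coding genes 2.32 (dashed line), and Slc25a45 leads with 13.

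These were 124 separate regions, of which 4 lay near 2 Slc25 genes. By protein-coding genes, 39 lay in introns, 17 over exons and 68 between genes. Of the 124 regions, 19 lay inside an Slc25 gene, and for 47 the nearest protein-coding 5′ end was that of an Slc25 gene. Such places were not counted over all distal regions. The median value of the 124 was 1.63 in replicate 1 and 1.26 in replicate 2, against 1.14 and 0.911 over all 25847 distal regions. The GATA consensus was found in 20 of the 124 (16.1%), against 19.1% of all distal regions, and the CTCF consensus in 50 (40.3%), against 34.4%. In 5 of the regions a GATA match lay in a footprint of both replicates extended by 5 bp on each side, and in 36 a CTCF match did. Matches in footprints were not counted over all distal regions, so these counts are not read as a trait of Slc25 genes.

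Counts of 6 or more, which 10.7% of all genes reached, were found at 6 of 45 Slc25 genes. These were Slc25a45 with 13, Slc25a39 with 10, Slc25a30 with 9, Slc25a25 with 7 and Slc25a23 and Slc25a44 with 6 each. At the other end, Slc25a2, Slc25a18, Slc25a20, Slc25a40, Slc25a46 and Slc25a54 had 0. Slc25a40, Slc25a20 and Slc25a46 had 0 beside an open promoter.

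The Slc25a45 count came mostly from neighbours, since for 1 of its 13 regions the nearest 5′ end was that of an Slc25 gene. A run of 11 lay between 36072 and 25934 bp upstream, over the noncoding genes Neat1 and Frmd8os and the end of Frmd8. The highest of these had 9.87 in replicate 1 and 7.52 in replicate 2, above the Slc25a45 promoter region with 1.35 and 0.990.

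Of the 10 regions of Slc25a39, 8 had the erythroid anion exchanger gene Slc4a1 as the nearest 5′ end. The highest pair in replicate 1 had 7.24 and 6.71 there and 2.63 and 4.02 in replicate 2, at Bloodlinc, a noncoding RNA gene beside Slc4a1. The region nearest to Slc25a39 lay 3964.5 bp upstream (chr11:102411821-102412000, given on the minus strand), with 6.02 in replicate 1 and 6.46 in replicate 2, where it was the highest of the 10. Its sequence is given because a CTCF consensus match lies in a footprint of both replicates.
Slc25a39 distal: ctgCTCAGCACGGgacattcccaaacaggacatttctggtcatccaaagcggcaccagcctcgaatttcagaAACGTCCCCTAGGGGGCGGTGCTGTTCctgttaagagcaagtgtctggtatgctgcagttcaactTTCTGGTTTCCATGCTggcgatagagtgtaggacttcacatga

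Slc25a30 had 9 regions, of which 5 lay between 13426.5 and 37554.5 bp inside the gene and its neighbour Cog3 and 4 lay between 42123.5 and 50127 bp upstream, towards Tpt1. Their values ran from 1.32 to 3.40 in replicate 1 and from 0.634 to 2.78 in replicate 2. At Slc25a25, 4 of 7 regions lay between 35865.5 and 44025.5 bp upstream, with the highest of these at 5.18 in replicate 1 and 4.74 in replicate 2. Slc25a23 had 4 of its 6 regions between 36457.5 and 40278.5 bp upstream, nearest to Tubb4a and Tnfsf9. For Slc25a44 the highest, 42191.5 bp upstream, had 3.71 and 4.72 and lay nearest to Sema4a.

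**Figure D4:**
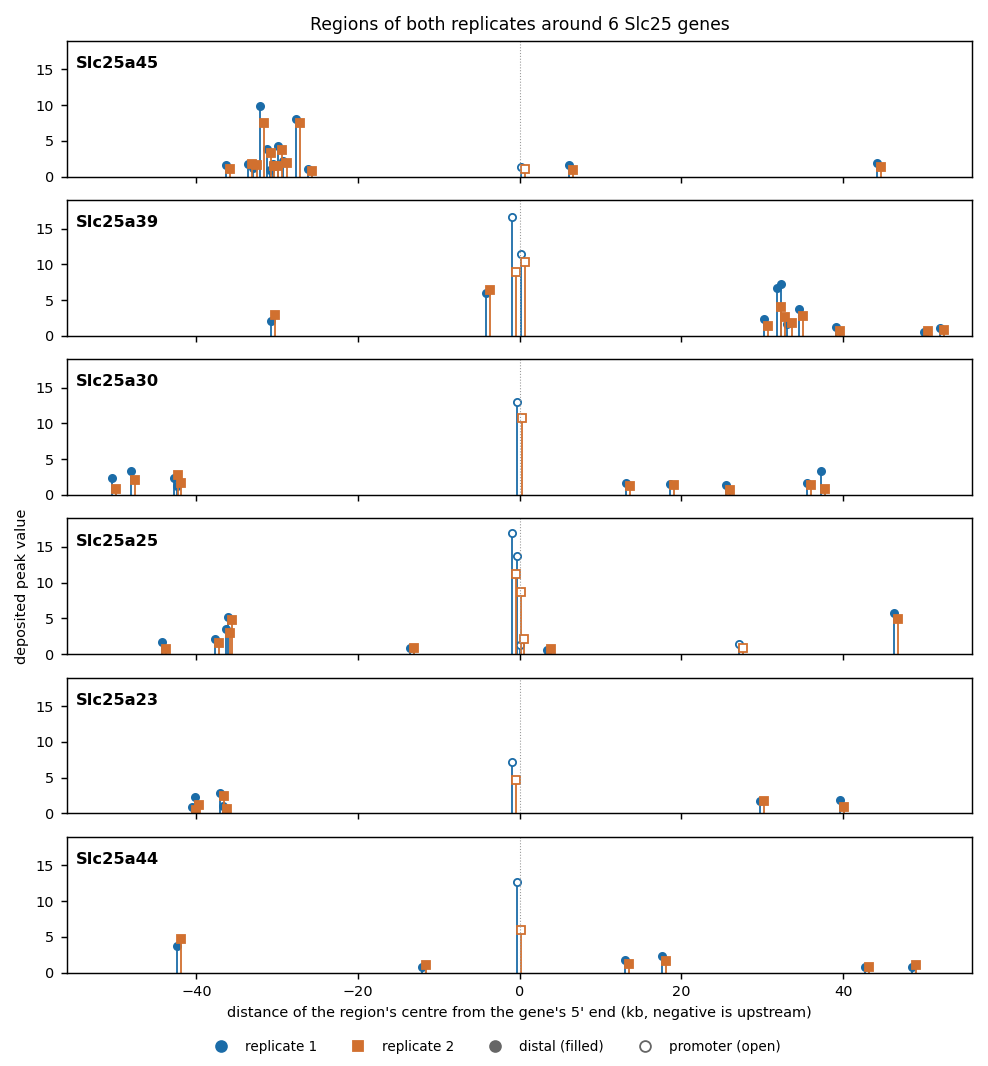
Deposited peak value (y axis) of the regions of both replicates by distance of their centre from the 5′ end (x axis, kb, negative upstream) at the 6 Slc25 genes with 6 or more distal regions, with promoter regions as open symbols. Symbols of the replicates are drawn slightly apart. The Slc25a45 regions sit mostly upstream between 36072 and 25934 bp, and those of Slc25a39 mostly downstream near Slc4a1.

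The highest distal region whose nearest protein-coding 5′ end was that of an Slc25 gene lay 5332.5 bp past a start of Slc25a1 (chr16:17921881-17922140, given on the minus strand). It had 9.56 in replicate 1 and 7.70 in replicate 2, above the Slc25a1 promoter region with 7.19 and 6.35, and lay at the start of the noncoding gene AA914427. None of the 13 consensus sequences matched it.
Slc25a1 distal: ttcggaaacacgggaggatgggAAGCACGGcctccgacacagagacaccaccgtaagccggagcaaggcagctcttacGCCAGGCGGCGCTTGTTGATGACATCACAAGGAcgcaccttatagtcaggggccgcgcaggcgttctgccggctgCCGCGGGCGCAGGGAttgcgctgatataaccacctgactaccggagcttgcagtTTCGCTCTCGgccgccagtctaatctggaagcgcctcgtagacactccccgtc
All 4 distal regions of Slc25a1, all 3 of Slc25a4 and all 3 of Slc25a21 had the 5′ end of that same gene as the nearest.

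At the highest promoter region of each open Slc25 gene the replicates differed by less than 2-fold once the general offset between the libraries was set to 0. The log2 ratio of replicate 2 over replicate 1, with the median of all regions of both replicates (-0.19) set to 0, had a median of -0.15 over the 38 Slc25 genes, against -0.03 over all genes with a promoter region. It was past 2-fold in 0 of 38, where 4.29% of all such genes were. Counting every promoter region of both replicates instead, it was past 2-fold at 1 of 55, where 5.41% of all promoter regions were. That one was the region 398.5 bp upstream at Slc25a21, with a log2 ratio of -1.61. The values of the replicates ranked the Slc25 genes alike, with a Spearman coefficient of 0.963 over 38 genes, which share the libraries and are no independent samples.

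Among the highest regions of the genes, the lowest ratio was that of Slc25a44, which had 6.00 in replicate 2 and 12.6 in replicate 1, a log2 ratio of -0.89 (95% counting interval -1.01 to -0.76). Slc25a42 (7.52 in replicate 2 and 13.9 in replicate 1) and Slc25a39 (8.98 and 16.6) each had -0.70, and Slc25a32 (14.2 and 23.5) had -0.54. The highest of these ratios were those of Slc25a24 with 0.57 (0.12 to 1.01), Slc25a22 with 0.51 and Slc25a15 with 0.50. The 5 erythroid marker genes had ratios between -0.81 and -0.44 with a median of -0.64, and the 2 hepatoblast markers with a region had 0.21 and -0.41. Whether cell makeup had a part in the Slc25 ratios was not tested.

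**Figure D5:**
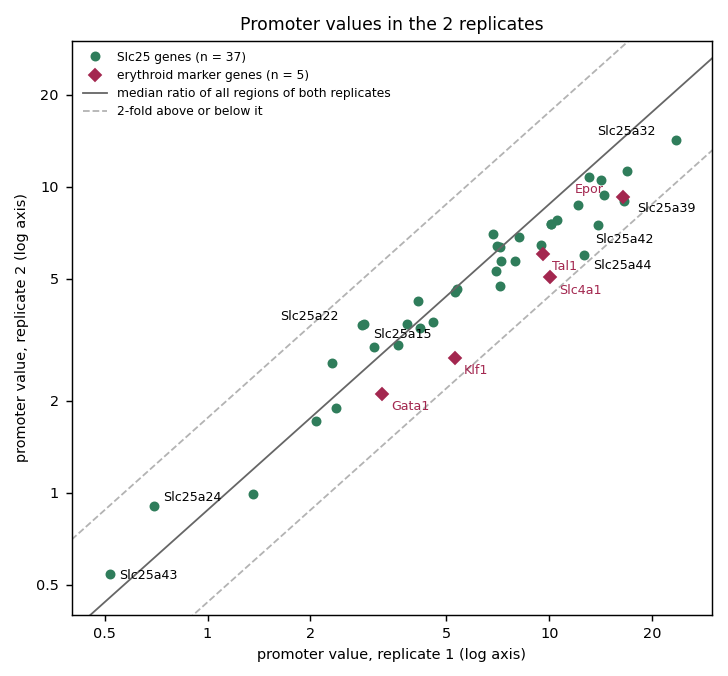
Value of the highest promoter region in replicate 2 (y axis, log) against replicate 1 (x axis, log) for 37 Slc25 genes with a promoter region (circles) and 5 erythroid marker genes (diamonds), with the median ratio of all regions (solid line) and 2-fold limits (dashed). Slc25a44, Slc25a42 and Slc25a39 lie low, with -0.89, -0.70 and -0.70, and the erythroid genes lie below the solid line.

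Other genes of mitochondrial transport were open more often than not. Of 30 such genes, 27 had a promoter region in both replicates, against 58.4% of all protein-coding genes. The 27 had a median of 9.19 in replicate 1 and 6.88 in replicate 2, against 5.95 and 5.04 over all genes with such a region. The mitochondrial pyruvate carrier subunit gene Mpc2 was highest, with 19.9 and 18.6. Ucp1 and Ucp3, uncoupling proteins known from brown fat and muscle, had none. Of the genes left out of the family by its definition, the glycine carrier Slc25a38 had 13.6 and 10.5, and the erythroid iron carrier Slc25a37 had no promoter peak in the lists used here.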

How the data were processed

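For each library the authors derived peaks from its filtered alignment alone, and footprints from that alignment plus its FDR values, all on mm10, per the authors' deposited notes. The deposited signal per peak has no stated normalization. Each line of the deposited footprint lists carries 0.01, read as a threshold on a p-value or FDR, and the deposited FDR values lie under 0.05. The sources used here name no aligner or caller.

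Signals were divided by the step of their library (0.0127 in replicate 1, 0.00604 in replicate 2) to recover counts, and 100% came out whole within 0.05 of a step. Intervals are 95% Poisson and cover counting error only. Library totals were not used, so depth is given as counts per peak. Peaks and footprints were joined by an overlap of at least 1 bp. Genes came from GENCODE vM21 and sequence from RefSeq GRCm38.p6, which has mm10 coordinates, with Python 3.11.15 scripts (numpy 2.4.6, pandas 2.3.3, pysam 0.24.0) checked on simulated data. Described singly were Slc25 genes without a promoter peak, at or past percentiles 90 or 10, with 0 or many distal regions, past 2-fold between replicates, with most or fewest footprints, and near relatives. Those named for a motif or the place of a region were chosen after their values were seen. The values of 1 member and 1 sequence are not reported here. No test was run, since there is 1 group. Members and lists were chosen with earlier results of these data known. Alternatives were other windows, overlaps, peak lists, starts and single replicates.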

Additional observations from a re-analysis of the deposited data

How the results depend on the processing

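The count of Slc25 genes with a promoter region stayed between 36 and 40 of 45 under all 8 alternatives, and that with a footprint between 34 and 40 under all 6. Leaving out 1 replicate gave 38 (replicate 1 kept) and 40 (replicate 2 kept) for regions. Over all genes, 60.7% had a promoter peak in replicate 1 and 65.3% in replicate 2. For footprints it gave 37 and 40, where 12247 and 14016 of all 21884 genes had one. Shares over all genes under the other alternatives are not given here, so those counts are read only against each other. Slc25a43 lost its region in the shorter peak list and among the upper 50% of peaks, Slc25a45 in the shorter list, Slc25a24 among the upper 50% and Slc25a23 in a 250 bp window. The median promoter value, 6.59 as the mean of both replicates, was 5.51 to 7.09 in single replicates and stayed above that of all genes in each alternative.

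The mean number of distal regions, 2.84, moved most. It was 4.24 to 5.07 with the unmerged peaks of a single replicate, each counted as 1 region, 1.98 in the shorter list, 2.02 among the upper 50% of peaks and 6.27 within 100 kb. Within 20 kb it was 1.07, against 1.08 over all genes, and in the other alternatives it lay above that of all genes. Without setting the general offset to 0, 1 of the 38 open Slc25 genes, Slc25a44, was past 2-fold between replicates. The share over all genes under that setting is not given here, so the count is not read as a trait of Slc25 genes. With the offset set to 0, every promoter region was also counted, an alternative added after seeing the data. There 1 of 55 was past 2-fold, against 5.41% of all promoter regions. Searched in the 38 open regions instead of the 45 windows, matches went to 1 for NRF1, 7 for the E-box, 2 for YY1, 1 for ERR, 4 for GATA and 0 for TATAAA. The ERR match made 2.63% of the open Slc25 regions, against 0.188% of all open regions. For the others the shares over all genes are given with each motif above. The causes of these moves were not tested. No paired analysis was possible because the replicates form 1 group. With 7 to 12401 counts per peak in replicate 1, weak promoters such as that of Slc25a43 rest on few counts.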

Other observations

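Distal regions around the Slc25 genes were also counted for each replicate by itself. All merged regions with a peak of that replicate were taken, those with a peak in both replicates included. An Slc25 gene had a mean of 4.87 such regions within 50 kb in replicate 1 and 4.04 in replicate 2. The means over all protein-coding genes were 3.89 and 3.70. The difference between the replicates was largest in count at Slc25a21, with 10 in replicate 1 and 4 in replicate 2, and at Slc25a34, with 9 and 3, and Slc25a39, with 14 and 20. Slc25a12 had 8 and 3.

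Among the other genes of mitochondrial transport, the outer membrane proteins related to the carriers, Mtch1 and Mtch2, had high promoter values. Mtch1 had 18.8 in replicate 1 and 14.7 in replicate 2, and Mtch2 had 18.7 and 13.9. The sideroflexin gene Sfxn2 had 11.8 and 6.63, and Sfxn1, the serine carrier, 3.58 and 2.83. The list as a whole had a mean of 4.33 distal regions per gene, against 2.32 over all protein-coding genes.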
